A study of Homo sapiens with 4 samples.

Results

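Epithelial and mesenchymal state genes are the subject here: CDH1, EPCAM, CDH2, VIM, FN1, ZEB1, ZEB2, SNAI1, SNAI2 and TWIST1. They were chosen by symbol as markers and transcription factors of the epithelial-mesenchymal transition, by a rule that uses no measured value. All 10 were found among the 62696 genes of the count tables, and all 10 passed the expression minimum that left 15880 genes to be compared. The RNA came from NT2 cells (NTERA-2), a human embryonal carcinoma line. One library, the control, came from cells carrying an empty vector, with the genotype given as wild type, and 3 came from cells labelled as HYDIN2 knockdown, replicates 1 to 3. Cells of both groups grew in the same serum-containing medium. The labels do not state how the knockdown was made, or if each replicate was a culture or clone of its own. The spread among the 3 replicates may therefore be technical.

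Epithelial cells are held together by E-cadherin (CDH1) in adherens junctions, and mesenchymal cells carry N-cadherin (CDH2), vimentin filaments (VIM) and a fibronectin matrix (FN1). The ZEB, SNAI and TWIST families are transcription factors that can repress CDH1 by binding E-box sequences, and they act in gastrulation, in the neural crest and in carcinoma. Embryonal carcinoma cells resemble the pluripotent epiblast, an epithelium whose cells pass through such a transition when the germ layers form.

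The libraries held between 25181737 counts, for the control, and 62904698 counts. Levels are given as CPM, counts scaled to library size with trimmed mean of M-values factors, and differences are log2 values, labelled knockdown minus control. Higher or lower here means at least 2-fold from the control, on the same side of it, in all 3 labelled knockdown libraries. The targeted gene, HYDIN2, was at 0.4999 CPM in the control (12 counts) against 2.41, 1.88 and 0.352 CPM in replicates 1, 2 and 3 (150, 112 and 11 counts). Replicates 1 and 2 were above the control, and the ratio of replicate 3 was 0.704 with a 95% counting interval of 0.180 to 2.697. A reduction was thus not seen in replicates 1 and 2, and the counts of replicate 3 are too few to tell. The wording labelled knockdown is kept throughout. The count columns also carry other names, of a LacZ control and of GKAP_KIF27 sets. Between replicates 1 and 2, 28 of 15817 genes were 2-fold or more apart, against 3590 of 16082 genes between replicates 3 and 1. For the labelled cell type, 14 of 15 embryonal carcinoma markers had at least 1 CPM in every library, and ZFP42 lay between 0.0640 and 0.167 CPM.

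Of the 10 genes, 3 were higher in all 3 labelled knockdown libraries: FN1, ZEB2 and CDH2. None was lower in all 3. Over all 15880 genes, 3.65% were higher and 2.72% were lower by the same rule. With scaling to total counts, the split over all genes moved from 580 higher and 432 lower to 734 higher and 312 lower, and the median difference over all genes in replicate 3 moved from -0.15 to 0.05. The median over the 10 genes of the mean difference was 0.46, against -0.02 over all genes tested. Of the 10 genes, 6 lay above the control in every labelled knockdown library, 3 lay below it in every one, and CDH1 did neither. Over all 15880 genes, 30.1% lay above the control in every one and 34.2% below it, so 3 of 10 below was near that share.

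**Figure D1:**
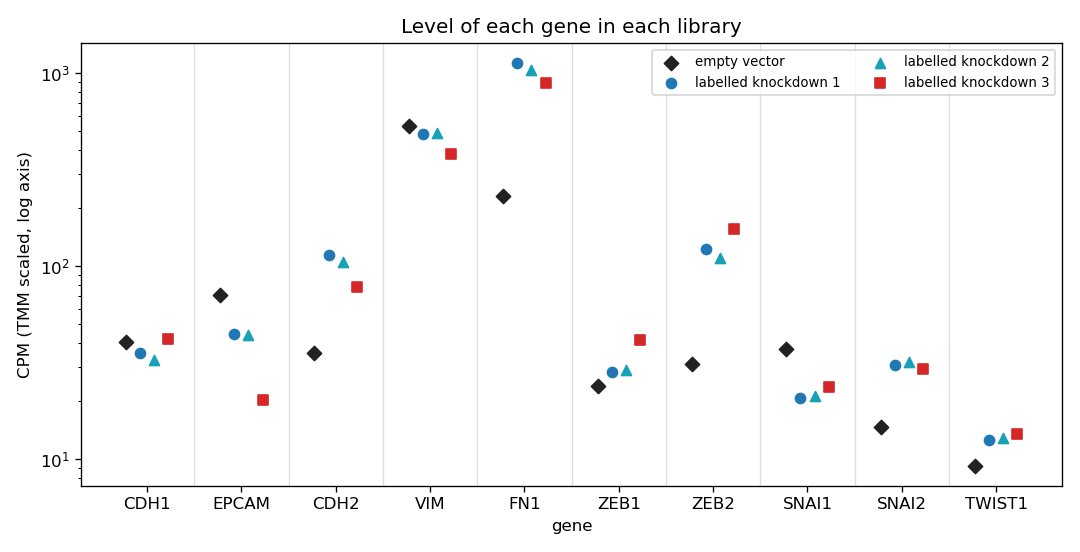
Level of each of the 10 genes in CPM (log axis) in the empty vector control (black diamonds) and the labelled knockdown replicates 1 (blue circles), 2 (teal triangles) and 3 (red squares). FN1, ZEB2 and CDH2 stand apart from the control in all 3 replicates, while CDH1 and VIM stay close to it.

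The cadherins were examined first. CDH1 (ENSG00000039068.20; chromosome 16, 68737225 to 68835548, plus strand of GRCh38) had 40.4 CPM in the control, against 35.3, 32.6 and 41.8 CPM in labelled knockdown replicates 1, 2 and 3. The control value lay inside the range of the replicates. The mean difference was -0.15 ± 0.18 (SD, n = 3), within the spread of the replicates. CDH2 (ENSG00000170558.10; chromosome 18, 27950966 to 28177446, minus strand) was at 35.4 CPM in the control, against 115, 105 and 78.1 CPM in the replicates. All 3 replicates lay above the control, with replicate 3 the lowest. Their ratios to it were 3.25 (95% counting interval 2.94 to 3.60), 2.97 (2.69 to 3.30) and 2.21 (1.98 to 2.47). These intervals cover counting error only and compare libraries, not conditions. The mean difference was 1.47 ± 0.29 (SD, n = 3). In RNA from a whole culture, a change in the number of cells that express a gene and a change in its RNA per cell cannot be told apart.

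The ratio of the cadherins within a library does not depend on scaling between libraries. Per kilobase of annotated exon, CDH2 was 1.09 times as abundant as CDH1 in the control, with an interval from 0.957 to 1.25 that included 1. It was 4.06 (3.79 to 4.35), 4.03 (3.75 to 4.33) and 2.33 (2.12 to 2.57) times as abundant in replicates 1, 2 and 3. The ratio was thus 3.72, 3.69 and 2.13 times that of the control, and no interval of a replicate overlapped that of the control.

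EPCAM (ENSG00000119888.11; chromosome 2, 47345158 to 47387601, plus strand) encodes an epithelial surface glycoprotein. Its level was 70.9 CPM in the control, against 44.3, 44.0 and 20.1 CPM in replicates 1, 2 and 3. Every replicate lay below the control, at ratios of 0.625 (0.573 to 0.681), 0.620 (0.568 to 0.676) and 0.284 (0.249 to 0.323). Only replicate 3 was more than 2-fold lower, and the mean difference was -1.06 ± 0.65 (SD, n = 3). Without replicate 3 it was -0.68. EPCAM was also the one gene of the 10 in which replicate 3 differed at least 2-fold from both other replicates, at 0.456 times their mean. By that rule 13.0% of 16001 genes were lower and 6.79% were higher in replicate 3.

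Among the structural genes, VIM (ENSG00000026025.16; chromosome 10, 17228259 to 17237593, plus strand), which encodes an intermediate filament protein, had 536 CPM in the control, against 483, 493 and 381 CPM in the replicates. The replicates were slightly lower, with a mean difference of -0.25 ± 0.21 (SD, n = 3), and removal of trends on transcript length and GC content brought that to -0.08. FN1 (ENSG00000115414.21; chromosome 2, 215360440 to 215436172, minus strand) encodes fibronectin, a matrix glycoprotein that cells bind through integrins. Its level was 232 CPM in the control, against 1130, 1042 and 891 CPM in replicates 1, 2 and 3. The replicates lay close together and far above the control, at ratios of 4.87 (4.69 to 5.06), 4.49 (4.32 to 4.67) and 3.84 (3.69 to 4.00). The mean difference was 2.13 ± 0.17 (SD, n = 3), which ranked 103 among 15880 genes. Per kilobase, FN1 was 0.129 times as abundant as VIM in the control and 0.697, 0.629 and 0.696 times as abundant in the replicates, and VIM was 3.69 times as abundant as EPCAM in the control and 5.32, 5.48 and 9.24 times in the replicates. Summed over the 10 genes, the level was 1031 CPM in the control against 2022, 1921 and 1676 CPM. Most of that rise was FN1 itself, at 232 CPM in the control against 1130, 1042 and 891 CPM, so the sum does not describe the other genes.

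ZEB1 and ZEB2 encode zinc finger homeobox repressors. ZEB1 (ENSG00000148516.23; chromosome 10, 31318495 to 31529814, plus strand) had 24.0 CPM in the control, against 28.1, 28.8 and 41.5 CPM in the replicates. All 3 lay above the control, with replicate 3 the highest, and the mean difference was 0.43 ± 0.31 (SD, n = 3). Removal of the length and GC trends left ZEB1 at -0.14, -0.07 and 0.60 in replicates 1, 2 and 3. ZEB2 (ENSG00000169554.23; chromosome 2, 144364364 to 144524583, minus strand) was at 31.2 CPM in the control, against 123, 110 and 156 CPM in the replicates. Its ratios were 3.95 (3.55 to 4.41), 3.52 (3.16 to 3.93) and 5.01 (4.50 to 5.61), and its mean difference was 2.04 ± 0.26 (SD, n = 3). Unlike FN1 and CDH2, ZEB2 was highest in replicate 3. Per kilobase, ZEB2 was 0.450 times as abundant as ZEB1 in the control (0.385 to 0.526) and 1.51, 1.31 and 1.30 times as abundant in the replicates.

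**Figure D2:**
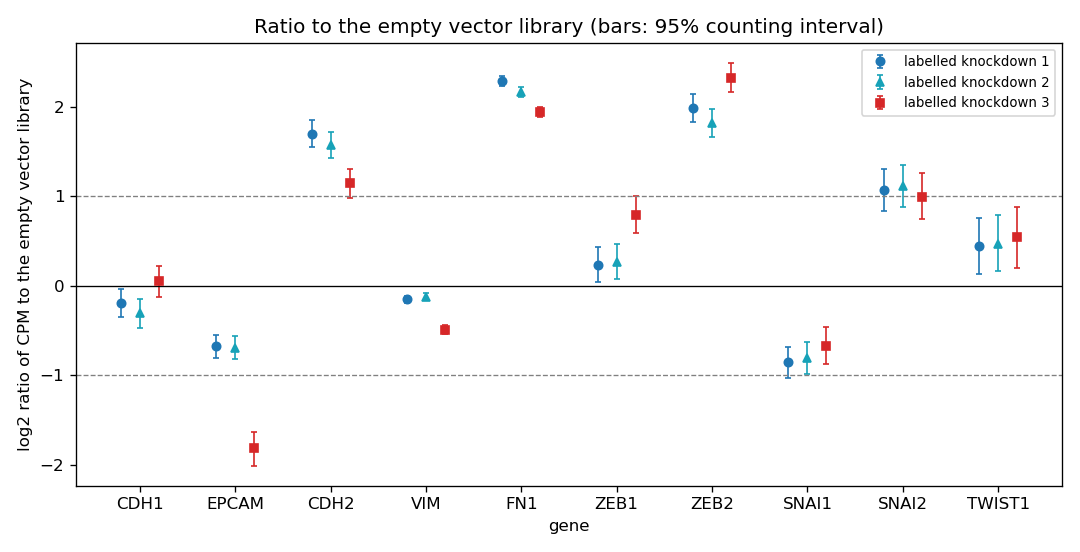
Log2 ratio of each gene's CPM to that of the control for labelled knockdown replicates 1 (blue circles), 2 (teal triangles) and 3 (red squares), with bars for the 95% counting interval and dashed lines at 2-fold. FN1, ZEB2 and CDH2 lie above the upper line in every replicate, SNAI2 lies on it, and EPCAM passes the lower line in replicate 3 only.

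For the 3 higher genes, the 250 bases before the RefSeq transcription start (GRCh38.p14) are shown, 5′ to 3′ on the strand of the gene. They are the start regions of the genes that passed the 2-fold rule, and shared regulation was not tested. Capitals mark matches to the E-box CANNTG, which the ZEB, SNAI and TWIST factors can bind in some of its forms, and to TGACGTCA, the cyclic AMP response element. Both motifs read the same on either strand. The windows are chr2:215436069-215436318 for FN1, chr2:144520120-144520369 for ZEB2 and chr18:28177131-28177380 for CDH2, all on the minus strand.
FN1: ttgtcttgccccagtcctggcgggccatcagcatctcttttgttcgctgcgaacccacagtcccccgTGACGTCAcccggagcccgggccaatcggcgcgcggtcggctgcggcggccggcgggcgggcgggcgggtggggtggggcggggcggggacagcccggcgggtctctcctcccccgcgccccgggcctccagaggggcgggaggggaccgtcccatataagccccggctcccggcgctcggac
ZEB2: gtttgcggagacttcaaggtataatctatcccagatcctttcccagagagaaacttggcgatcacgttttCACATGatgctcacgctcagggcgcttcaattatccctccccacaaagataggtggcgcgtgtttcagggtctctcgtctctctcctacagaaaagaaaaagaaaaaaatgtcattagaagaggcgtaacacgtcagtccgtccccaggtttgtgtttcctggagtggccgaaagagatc
CDH2: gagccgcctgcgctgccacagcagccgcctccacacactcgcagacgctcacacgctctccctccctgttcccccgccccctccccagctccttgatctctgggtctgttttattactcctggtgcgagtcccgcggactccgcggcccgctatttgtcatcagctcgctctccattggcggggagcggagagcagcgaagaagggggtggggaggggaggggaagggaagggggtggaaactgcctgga

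The FN1 window held 1 match to TGACGTCA, starting 183 bases before the start, and no E-box. That motif was present in 1.65% of 35116 promoter windows of the same length. The ZEB2 window held 1 E-box, CACATG, starting 180 bases before the start, and 61.8% of all windows held at least 1. The CDH2 window held neither motif. A second RefSeq start of CDH2, farther downstream, had 1 E-box in its window. The form CAGGTG, searched on both strands and contained in CANNTG, was found in 17.5% of all windows and in none of FN1, ZEB2, CDH2 or VIM. It was found in 2 of 7 windows of ZEB1. Windows were found for 5 of the 10 genes, and these matches describe letters, not bound sites.

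The SNAI genes encode zinc finger repressors. Their levels lay on opposite sides of the control, and neither passed the 2-fold rule. SNAI1 (ENSG00000124216.4; chromosome 20, 49982999 to 49988886, plus strand) had 37.4 CPM in the control, against 20.6, 21.3 and 23.5 CPM in the replicates. All 3 replicates were lower and lay close together, at ratios of 0.552 (0.489 to 0.625), 0.571 (0.505 to 0.646) and 0.630 (0.547 to 0.724). The mean difference of -0.78 ± 0.10 (SD, n = 3) did not reach 2-fold. It was -0.32 after removal of the length and GC trends, with 0.04 in replicate 3. SNAI2 (ENSG00000019549.13; chromosome 8, 48917604 to 48921740, minus strand) was at 14.7 CPM in the control, against 30.8, 31.7 and 29.3 CPM in the replicates. Its log2 differences were 1.07, 1.11 and 0.99, so replicate 3 fell just short of the 2-fold rule. SNAI2 did pass under upper quartile, total count or relative log expression (RLE) scaling, after trend removal, and without replicate 3. The ratio of SNAI2 to SNAI1 per kilobase was 0.195 in the control (0.163 to 0.233) and 0.741, 0.737 and 0.618 in the replicates.

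TWIST1 (ENSG00000122691.13; chromosome 7, 19020991 to 19117672, minus strand) encodes a basic helix-loop-helix factor of mesoderm and neural crest. It was the gene with the fewest counts of the 10, at 222 in the control. Its level was 9.25 CPM there and 12.6, 12.8 and 13.4 CPM in replicates 1, 2 and 3. All 3 replicates were higher, and their counting intervals, which ran from 1.10 to 1.69, from 1.12 to 1.73 and from 1.15 to 1.85 as ratios, lay above 1. The mean difference was 0.48 ± 0.05 (SD, n = 3), below 2-fold, and was 0.93 after trend removal.

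**Figure D3:**
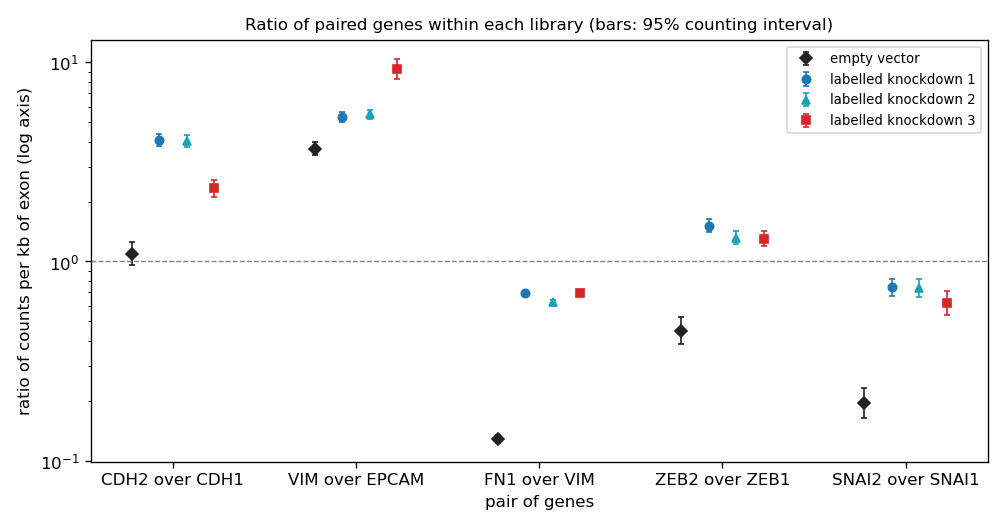
Ratio of counts per kilobase of exon (log axis) between the genes of 5 pairs, within each of the 4 libraries, with bars for the 95% counting interval and a dashed line at equal levels. CDH2 and CDH1 were near equal in the control, and all 5 ratios were higher in each of the 3 labelled knockdown libraries. The ratios restate the differences of the single genes, and VIM itself was lower in each replicate. Of the ratios not shown, FN1 over CDH1 was higher and EPCAM over CDH1 lower in each replicate.

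The order of the levels per kilobase of exon also differed between the groups. In the control VIM was the highest at 104 CPM per kb, followed by EPCAM at 28.2, SNAI1 at 22.2, FN1 at 13.4, CDH2 at 7.14 and CDH1 at 6.54. TWIST1 at 4.55, SNAI2 at 4.32, ZEB1 at 2.77 and ZEB2 at 1.25 CPM per kb followed. In the labelled knockdown libraries VIM stayed the highest at 87.7 ± 12.0 CPM per kb (SD, n = 3), and FN1 came next at 59.0 ± 6.98 (SD, n = 3). CDH2 at 20.1 ± 3.85, EPCAM at 14.3 ± 5.50 and SNAI1 at 13.0 ± 0.89 CPM per kb followed, and the ranges of neighbours among these 3 overlapped. SNAI2 at 9.01 ± 0.36 CPM per kb did not overlap with its neighbours SNAI1 and TWIST1, but its range of 8.63 to 9.33 lay inside that of EPCAM, which went from 7.99 to 17.6. TWIST1 at 6.36 ± 0.23, CDH1 at 5.92 ± 0.77, ZEB2 at 5.18 ± 0.96 and ZEB1 at 3.79 ± 0.87 CPM per kb again overlapped with their neighbours. The exon length is the merged length of all annotated isoforms, which for ZEB2 is 25058 bases and for FN1 17315, so the levels of these genes are low estimates.

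Reads of genes on the opposite strand could add to a count if strand was not used in counting. ZEB1-AS1, which overlaps ZEB1, had 96 counts in the control and 448, 560 and 157 in the replicates, or 16.7%, 25.6%, 32.5% and 12.1% of the ZEB1 counts. ZEB2-AS1 had 0 counts in the control and 12, 24 and 34 in the replicates, at most 0.696% of the ZEB2 counts. No annotated gene overlaps FN1, SNAI1 or SNAI2.

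By edgeR's quasi-likelihood test, which takes its spread from the labelled knockdown libraries and so sets 1 library against 3, 0 of the 10 genes and 0% of 26029 genes had an adjusted p under 0.05. The unadjusted p was under 0.05 for 3023 genes. The adjusted p was 0.358 for each of FN1, ZEB2 and CDH2, and 0.362 for SNAI2. The Wald test of DESeq2 called FN1 (adjusted p = 2.1e-04), ZEB2 (adjusted p = 0.0012) and CDH2 (adjusted p = 0.0446), among 1.72% of 15725 genes. Without replicate 3, edgeR's spread came from the closely matching replicates 1 and 2, and 8 of the 10 genes were called together with 44.7% of 25016 genes.

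**Figure D4:**
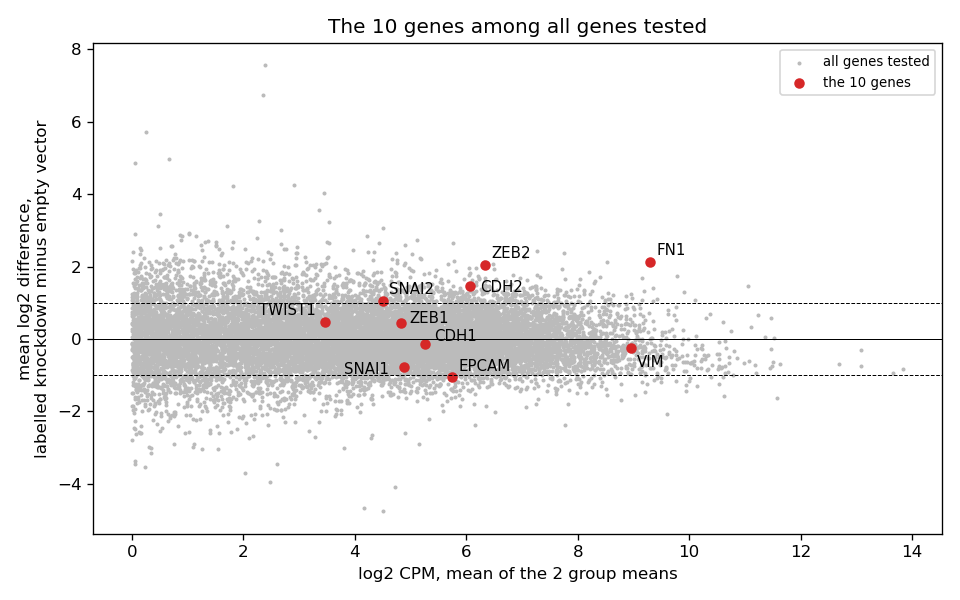
Mean log2 difference of the 3 labelled knockdown libraries from the control against mean level (log2 CPM) for the 15880 genes tested (grey) and the 10 genes (red), with dashed lines at 2-fold. FN1, ZEB2 and CDH2 lie above the upper line, at mean differences of 2.13, 2.04 and 1.47, and SNAI2 lies just above it at 1.06.

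Lists of other genes of the epithelial and mesenchymal states were compared by the same rule. By that rule 3.65% of all 15880 genes tested were higher and 2.72% were lower. Of 29 tested mesenchymal genes, 6 were higher and 0 lower, and the median difference was 0.49. TNC, encoding the matrix protein tenascin C, rose from 68.9 CPM to 418, 381 and 293 CPM in replicates 1, 2 and 3. The fibrillar collagen genes COL5A1 and COL5A2 rose from 24.1 and 16.8 CPM to means of 88.7 and 58.8 CPM, and FBN1 (fibrillin) rose from 16.6 to 46.3 CPM. The most abundant genes of the list per kilobase, SPARC and TPM1, did not pass, with differences from 0.20 to 0.94 and from -0.02 to 0.41. Without replicate 3 there were 10 higher genes and 1 lower gene, and after removal of the length and GC trends 4 were higher. Over all genes, 1542 were higher and 846 lower of 15797 without replicate 3, so the share of all genes rose as well. After removal of the trends, 458 of 15485 genes were higher.

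Of 15 other transcription factors linked to the transition, 3 were higher and 0 lower, with a median difference of 0.60. The share of all genes tested was 3.65% higher and 2.72% lower. PRRX1, a homeobox gene of limb and craniofacial mesenchyme, rose from 1.75 CPM to 9.67, 9.56 and 14.0 CPM. TBX3 rose from 10.3 to 33.8, 30.1 and 84.4 CPM, and SOX9 from 4.42 to 14.3, 12.3 and 15.3 CPM. TCF3 and SOX4, the most abundant per kilobase, had differences from -0.17 to 0.07 and from 0.26 to 0.45. Without replicate 3, 5 genes of this list were higher, where 1542 of 15797 genes were higher over all genes.

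Among 21 genes of TGF-beta signalling, a pathway that can induce the transition, 2 were higher and 0 lower, with a median difference of 0.55. Of all 15880 genes tested, 3.65% were higher and 2.72% lower. The ligand gene TGFB2 rose from 8.46 CPM to 19.0, 18.9 and 21.5 CPM, and the feedback inhibitor gene PMEPA1 from 21.0 to 47.5, 45.9 and 54.5 CPM. SKIL and BAMBI, the most abundant of the list per kilobase, had differences from -0.43 to -0.32 and from -0.20 to 0.23. After removal of the length and GC trends, 1 gene was higher, where 458 of 15485 genes were higher over all genes, and the median was 0.29.

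In the rest of the cadherin family with the catenins, 5 of 19 tested genes were higher and 0 lower, with a median of 0.64. Across all genes tested, 3.65% were higher and 2.72% lower. CDH6, a cadherin of kidney and neural crest precursors, rose from 8.91 CPM to 64.4, 62.8 and 53.4 CPM. CDH13 rose from 15.6 to 43.0, 39.4 and 36.5 CPM. CDH7 and CTNNA3 rose from 1.08 and 0.833 CPM to means of 3.63 and 2.91 CPM, CTNNA3 reaching the expression minimum only through the replicates, and CDH9, named after its values were seen, rose from 2.50 to a mean of 7.60 CPM. The genes CTNNB1 and CTNNA1, for the catenins that link cadherins to actin, did not pass, with differences from 0.01 to 0.34 and from -0.29 to 0.03. After removal of the length and GC trends, 2 genes of the list were higher, where 458 of 15485 genes were higher over all genes.

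The epithelial lists gave no common direction. Of 22 junction and keratin genes, 1 was higher and 1 lower, with a median difference of 0.30. By replicate the median was 0.60, 0.66 and -0.03, and it was 0.60 without replicate 3. CLDN6, a claudin of pluripotent cells and the most abundant gene of the list per kilobase, fell from 614 CPM to 236, 261 and 288 CPM, but it no longer passed with total counts or upper quartile scaling or after trend removal. KRT18, a keratin of simple epithelia, had 401 CPM against 270, 273 and 246 CPM. Higher junction and keratin genes numbered 4 with total counts, 3 with upper quartile scaling and 5 without replicate 3. Over all genes these settings gave 734 of 15836, 612 of 15879 and 1542 of 15797 higher. Of 13 epithelial regulators, 1 was higher and 2 were lower, with a median of -0.24, or 0.12, 0.21 and -1.003 by replicate. RAB25, a small GTPase of epithelial cells, fell to 2.63, 2.83 and 3.46 CPM, at log2 differences of -2.04, -1.94 and -1.66. PRSS8 fell from 35.9 to 16.2, 16.2 and 17.9 CPM, at the limit of the rule. The list had 1 lower gene with RLE scaling or total counts. It had 0 after removal of the length and GC trends, where neither RAB25 nor PRSS8 passed. GRHL2, the higher gene, was at 0.375 CPM (9 counts) in the control and at 1.96, 1.86 and 3.52 CPM in the replicates, and it reached the expression minimum only through the replicates. ESRP1, a splicing factor of epithelial cells, had 58.4 CPM in the control, against 63.6, 67.5 and 15.1 CPM in the replicates. MIR200CHG, the host gene of microRNAs that repress ZEB1 and ZEB2, lay below 1 CPM in all 4 libraries and was not tested.

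Of 8 tested fibronectin receptors and matrix partners, 0 were higher and 0 lower, with a median difference of 0.17. The most abundant per kilobase, SDC4 and ITGB1, had differences from -0.45 to 0.11 and from 0.10 to 0.62. With total counts, or without replicate 2, 1 gene of this list was higher. Over all genes these settings gave 734 of 15836 and 694 of 15909 higher.

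**Figure D5:**
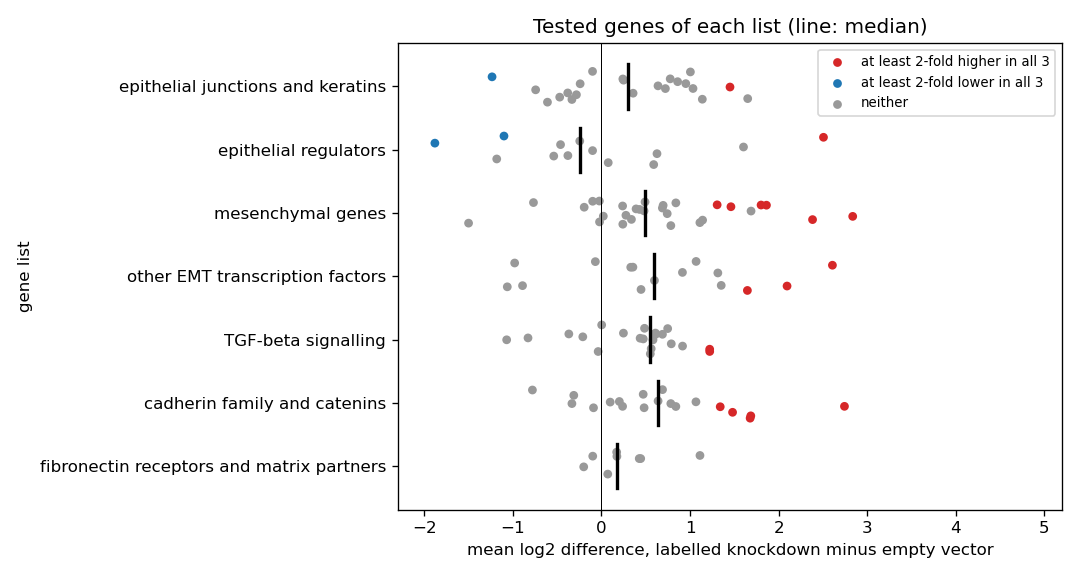
Mean log2 difference of every tested gene of 7 lists, with genes at least 2-fold higher (red) or lower (blue) in all 3 labelled knockdown libraries and a black line at the median of each list. The epithelial regulators are the one list with a median below 0, at -0.24, and that median was 0.17 without replicate 3.

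Markers of the line and of other cell types were read beside these results. Of the 14 tested embryonal carcinoma markers, 1 was lower (DNMT3B) and 0 were higher. In all 3 replicates 8 (57.1%) lay below the control, against 34.2% of all genes tested, of which 2.72% were lower and 3.65% higher by the rule. Their median difference was -0.36, or -0.21, -0.16 and -0.77 by replicate. The summed level of the list did not follow the medians. It was 9680 CPM in the control against 10026, 10168 and 8538 CPM in replicates 1, 2 and 3, so only replicate 3 lay below the control. Neural progenitor markers summed to 207 CPM in the control and to between 343 and 374 CPM in the replicates. HES5 was at 0 counts in every library. Of 8 tested genes, 3 were higher. Only 6 genes of this list had 1 CPM or more in the control, so some reached the expression minimum only through the replicates. Neural crest markers, whose cells use SNAI2, ZEB2 and TWIST1, summed to 98.9 CPM in the control. They summed to 90.9 and 90.1 CPM in replicates 1 and 2 and to 195 CPM in replicate 3. Of 7 tested genes, 2 were higher (TFAP2A and PAX3) and 0 lower, with a median difference of 1.02. In all 3 replicates 4 lay above the control and 2 below it. Only 5 genes of this list had 1 CPM or more in the control, against 7 in each replicate. Some thus reached the expression minimum only through the replicates, which raises the count and the median. SOX10, TFAP2B and PAX7 lay under 1 CPM in all 4 libraries and were not tested. Fibroblast markers, of which most also stand in the mesenchymal list, summed to 514 CPM in the control and to between 435 and 703 CPM in the replicates, with 2 of 8 tested genes higher (PDGFRB and POSTN), 0 lower and a median difference of 0.35. DCN and FAP lay under 1 CPM in all 4 libraries and were not tested. Trophoblast markers summed to 127 CPM against 242 to 285 CPM, with 2 of 5 higher, and endoderm markers to 9.08 CPM against 15.5 to 26.4 CPM, with 0 of 4 higher. All these counts of higher markers come from lists of few genes, and stand beside 3.65% of all genes tested. The part of such cells in the values of the 10 genes was not tested.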

How the data were processed

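Libraries were strand-specific and made from RNA without ribosomal RNA, per the labels' protocols. For each library, the authors deposited raw counts in a table of its own. The submitters' processing notes name STAR 2.7.11b, featureCounts 2.0.6, DESeq2 and GRCh38; the annotation release and strand setting are not given in the sources used here. Over 65% of nonzero counts in each library were even, as if each pair added 2, so 95% counting intervals (exact binomial, Clopper-Pearson) used counts divided by 2.

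Scaling factors came from edgeR 4.0.16 in R 4.3.3 on genes kept by filterByExpr. Log2 CPM used a prior count of 2, and genes entered at a mean of the group mean CPMs of at least 1. edgeR's quasi-likelihood test and the Wald test of DESeq2 1.42.0 used Benjamini-Hochberg adjustment over all genes. Coordinates and exon lengths came from GENCODE 29 (GRCh38), matched by Ensembl identifier for 58269 of 62696 genes. Trends on transcript length and GC content were removed by lowess with a span of 0.3. The rule, the trend removal and edgeR were tested on simulated data in which all libraries had the same spread. The simulation did not cover a replicate that stands apart from the others, as in these data. In each list the genes named are up to 4 that passed in each direction and the 2 highest per kilobase. One gene that this rule names is not reported here. The p-values measure only the spread between these samples. The genes and lists were chosen with earlier results of these data known.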

Additional observations from a re-analysis of the deposited data

How the results depend on the processing

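FN1, ZEB2 and CDH2 were higher in all labelled knockdown libraries under every alternative run. These were upper quartile, total count or RLE scaling, prior counts of 0.5 and 5, trend removal, and thinning to the smallest total. The others were a lower or no expression minimum, a limit of 1.5-fold or on the mean difference, and leaving out each labelled knockdown replicate. No mean difference of the 10 genes changed direction. Trend removal moved those of FN1 to 1.54 and of ZEB2 to 1.44. Lower genes numbered 2 under the 1.5-fold rule (EPCAM and SNAI1) and 1 under the rule on the mean (EPCAM). DESeq2 called 3 of the 10 genes, and edgeR called between 0 and 8 when each replicate in turn was left out: 0 without replicate 1, FN1 without replicate 2, and 8 without replicate 3.

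Over all genes, DESeq2 called 271 against 0 by edgeR, and edgeR called 17, 39 and 11177 without replicates 1, 2 and 3. The rule gave 1605 higher and 1035 lower genes at a mean CPM of 0.1, 2526 and 1810 with no minimum, 1590 and 1526 at 1.5-fold, 1356 and 1074 on the mean, 458 and 224 after trend removal, and 1542 and 846 without replicate 3. No paired analysis was possible because the label of the 1 control library gives no replicate number, and the spread of the control is unknown.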

Other observations

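In some genes of the lists, replicate 3 stood apart from replicates 1 and 2. They were chosen after their values were seen. GRHL3, a grainyhead factor of epithelia, had 6.17 CPM with empty vector, 11.2 CPM in each of the labelled knockdown replicates 1 and 2, and 53.2 CPM in replicate 3. LEF1, a factor of Wnt signalling, had 7.50 CPM against 13.1, 13.1 and 41.2 CPM. SPINT1, an epithelial protease inhibitor gene, had 20.0 CPM against 32.7, 32.3 and 8.87 CPM. CAV1 (caveolin) was high in replicates 1 and 2, at 275 and 251 CPM, and near the empty vector level of 78.0 CPM in replicate 3, at 74.2 CPM. The collagen gene COL3A1 was low in replicates 1 and 2, at 0.739 and 0.570 CPM, against 4.04 CPM with empty vector and 6.21 CPM in replicate 3. In these genes, chosen for it, replicate 3 differed from replicates 1 and 2 by more than 2-fold. Over 16001 genes, 13.0% were lower and 6.79% higher in replicate 3 by at least 2-fold from both. Of the 10 genes, EPCAM alone was.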
